A study of Mus musculus with 2 samples.

Results

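The genes described here are 50 genes of the DNA replication machinery, out of 43346 Ensembl gene rows, of which 21461 were nuclear protein-coding genes. They were chosen by name and function, as the genes that license origins, unwind DNA, copy it, load the sliding clamp, join fragments, supply nucleotides and protect forks. The choice rule uses no measured value, though earlier results of these data were known when the set was drawn up, and all 50 symbols were found in the tables. Their levels came from total RNA of megakaryocyte-erythroid progenitors (MEP), bone marrow progenitor cells named for the red cell and platelet lineages they can form. The study holds a single group, MEP primary cells from C57BL/6J males, 5 to 6 weeks old, with no treatment or altered allele named in the labels. Replicates 1 and 2 are 1 library each, made with the ScriptSeq kit from 100 ng of RNA after removal of ribosomal RNA, with size ranges of 200 to 1000 and 215 to 1000, unit not stated. The replicates have different biosample entries and a shared donor entry. Whether they came from different mice is therefore not known, and the spread between them may be technical. With 1 group of 2 libraries no test was possible, so every value below is a description.

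Chromosomes are copied once per cell cycle. Before S phase the origin recognition complex, Cdc6 and Cdt1 load the ring-shaped MCM2-7 helicase onto origins, and geminin blocks further loading by binding Cdt1. In S phase the kinase Cdc7 with Dbf4, together with Mcm10, Cdc45 and the GINS complex, turns that ring into an active helicase. Polymerase alpha-primase starts each strand, polymerases epsilon and delta extend it on the PCNA clamp, RPA covers single-stranded DNA, and Fen1 and ligase 1 join the lagging-strand fragments. Many of these genes are textbook targets of E2F transcription factors, which act at the entry to S phase, and MEP are known as a dividing population.

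Because of that known regulation, the promoter letters of the genes were examined first. RefSeq promoter windows (GRCm38.p6, 250 bases before to 50 after the annotated start, 300 in all) were matched by symbol for 41 of the 50 genes, 50 windows in all because some genes have several starts. No window was matched for Gmnn, Tipin, Mcm4, Pole, Prim2, Gins4, Rfc2, Gins2 and Gins1. The 4 spellings TTTGGCGC, TTTCCCGC, TTTCGCGC and TTTGCCGC, searched on both strands, are called E2F-like words here. The word CCAAT, a sequence that the factor NF-Y is known to bind, was searched the same way, and no CCAAT letters lie inside an E2F-like word. The 180 bases before the start are shown for 4 genes, because they hold both kinds of word together or CCAAT alone. Mcm5 and Mcm6, subunits of the helicase ring, hold both kinds of word. Pola1, the catalytic subunit of polymerase alpha, also holds both, and Rrm1, the large subunit of ribonucleotide reductase, holds CCAAT words without an E2F-like word. Each sequence is written along the strand of its gene, 5′ to 3′, and capitals mark E2F-like words and CCAAT words or their reverse complements, with overlapping words as 1 run.
Mcm5 (chr8:75109329-75109508, plus strand): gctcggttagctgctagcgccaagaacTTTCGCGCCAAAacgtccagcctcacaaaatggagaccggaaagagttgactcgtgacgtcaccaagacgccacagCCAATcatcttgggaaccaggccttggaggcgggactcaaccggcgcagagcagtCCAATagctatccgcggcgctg
Mcm6 (chr1:128359706-128359885, minus strand): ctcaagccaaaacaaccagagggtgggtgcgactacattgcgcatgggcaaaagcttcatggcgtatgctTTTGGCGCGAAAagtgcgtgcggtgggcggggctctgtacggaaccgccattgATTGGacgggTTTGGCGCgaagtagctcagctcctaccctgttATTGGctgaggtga
Pola1 (chrX:93632156-93632335, minus strand): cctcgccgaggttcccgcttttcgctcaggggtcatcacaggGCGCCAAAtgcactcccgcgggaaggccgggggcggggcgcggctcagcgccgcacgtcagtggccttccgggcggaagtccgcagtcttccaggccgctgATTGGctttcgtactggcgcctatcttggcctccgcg
Rrm1 (chr7:102441515-102441694, plus strand): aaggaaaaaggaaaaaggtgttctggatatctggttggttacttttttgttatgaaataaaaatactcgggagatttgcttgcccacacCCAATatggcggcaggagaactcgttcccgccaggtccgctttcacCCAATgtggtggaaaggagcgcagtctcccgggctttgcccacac

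E2F-like words were present in the windows of 16 of the 41 matched genes, 39.0%, while 2.6% of all 27025 genes of the promoter table hold one. The share was 3.34% among nuclear protein-coding genes of the table and 5.40% among those at a mean TPM of at least 1 in these libraries. TPM, a share of transcripts scaled to a fixed total, is a level per transcript length and, unlike a raw count, can be compared between genes. The 16 genes were Orc1, Orc3, Cdc6, Cdt1, Mcm3, Mcm5, Mcm6, Mcm7, Gins3, Pola1, Pold1, Pold3, Pole2, Rfc3, Lig1 and Clspn. Of the helicase subunits, 4 of 5 matched genes held a word. For Pcna, Rrm1, Rrm2, Tk1 and the 3 RPA genes none of the spellings lies in this window. The 22 words of the 16 genes began between 165 bases before and 40 bases after the start. Of these words, 20 began within 150 bases before the start or after it, and 5 genes held more than 1. CCAAT was present in the windows of 24 of the 41 genes, 58.5%, and in all 5 matched helicase genes. Its share was 41.1% of all genes of the table and 44.0% of protein-coding genes at a mean TPM of at least 1. Both kinds of word occurred together in 9 genes, 22.0%. This share was 1.26% of all genes of the table and 2.74% of protein-coding genes at a mean TPM of at least 1. A match is a description of the letters and not a measurement of binding.

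**Figure D1:**
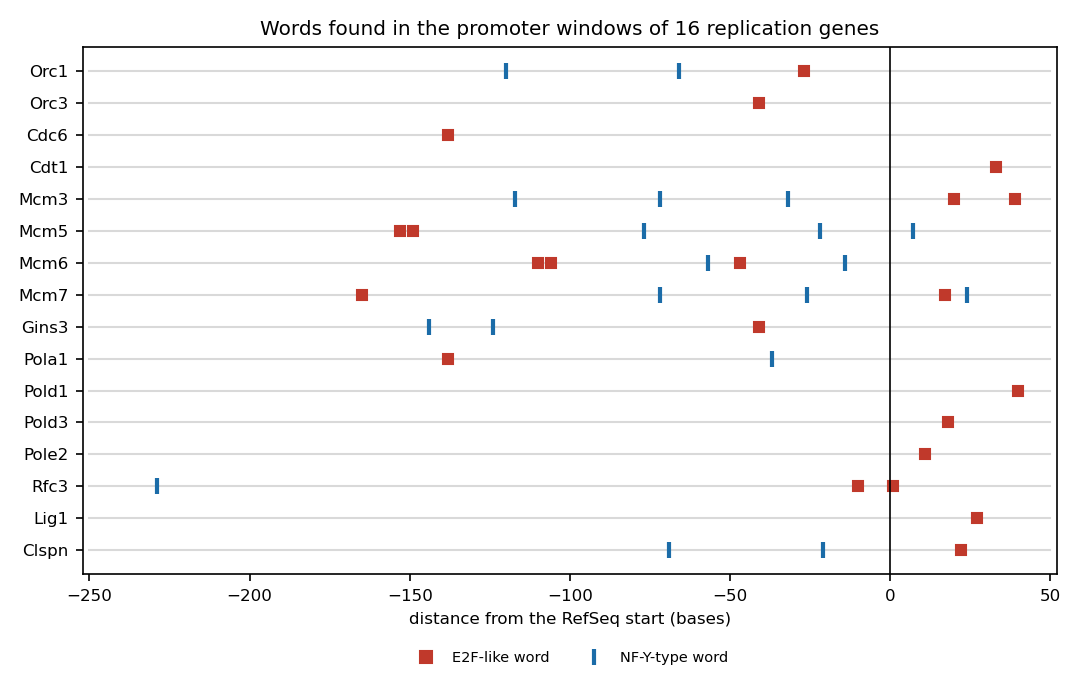
Positions of the searched words in the windows of the 16 genes with an E2F-like word; the x axis is the distance from the RefSeq start in bases, each row is 1 gene, squares are E2F-like words and vertical ticks are CCAAT words, called NF-Y-type in the key. The Mcm5 and Mcm6 rows each hold overlapping words before the start, and the outermost square, 165 bases before the start, belongs to Mcm7.

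Median levels of genes with and without an E2F-like word were close. The median TPM was 25.8 over the 16 genes with a word, from 4.47 for Gins3 to 118 for Mcm6, and 25.5 over the 25 without, from 7.51 for Cdc7 to 176 for Pcna. With CCAAT the median was 31.3 over 24 genes, and without it 18.5 over 17. The genes without CCAAT ended at 35.4, the level of Fen1, while Pcna, Mcm6, Mcm7 and Rrm1 all held CCAAT.

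All 50 genes were detected, with TPM values of 1 or more in each library, and 44 reached 10 in each. Among all nuclear protein-coding genes these shares were 39.4% and 14.7%. A TPM of 20 was reached in both libraries by 27 genes and 50 by 7, thresholds at which the share of all genes was not computed. The median of the 50 gene levels was 25.8, with 27.99 in replicate 1 and 21.8 in replicate 2. The median over the 9033 protein-coding genes at a mean TPM of at least 1 was 7.39. Of the 50, 48 lay above it, and Orc1 and Gins3 lay below. Pcna, Mcm6, Mcm7, Rrm1, Tipin, Mcm3, Gmnn, Orc4, Mcm2, Mcm5 and Rpa1, 11 genes in all, were among the 1000 highest protein-coding genes. Each gene rested on 677 to 48659 expected counts per library. Counts of the 50 genes made up 0.856% and 0.941% of the library totals. Where a pair of values is given without further words, the first is that of replicate 1 and the second that of replicate 2.

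**Figure D2:**
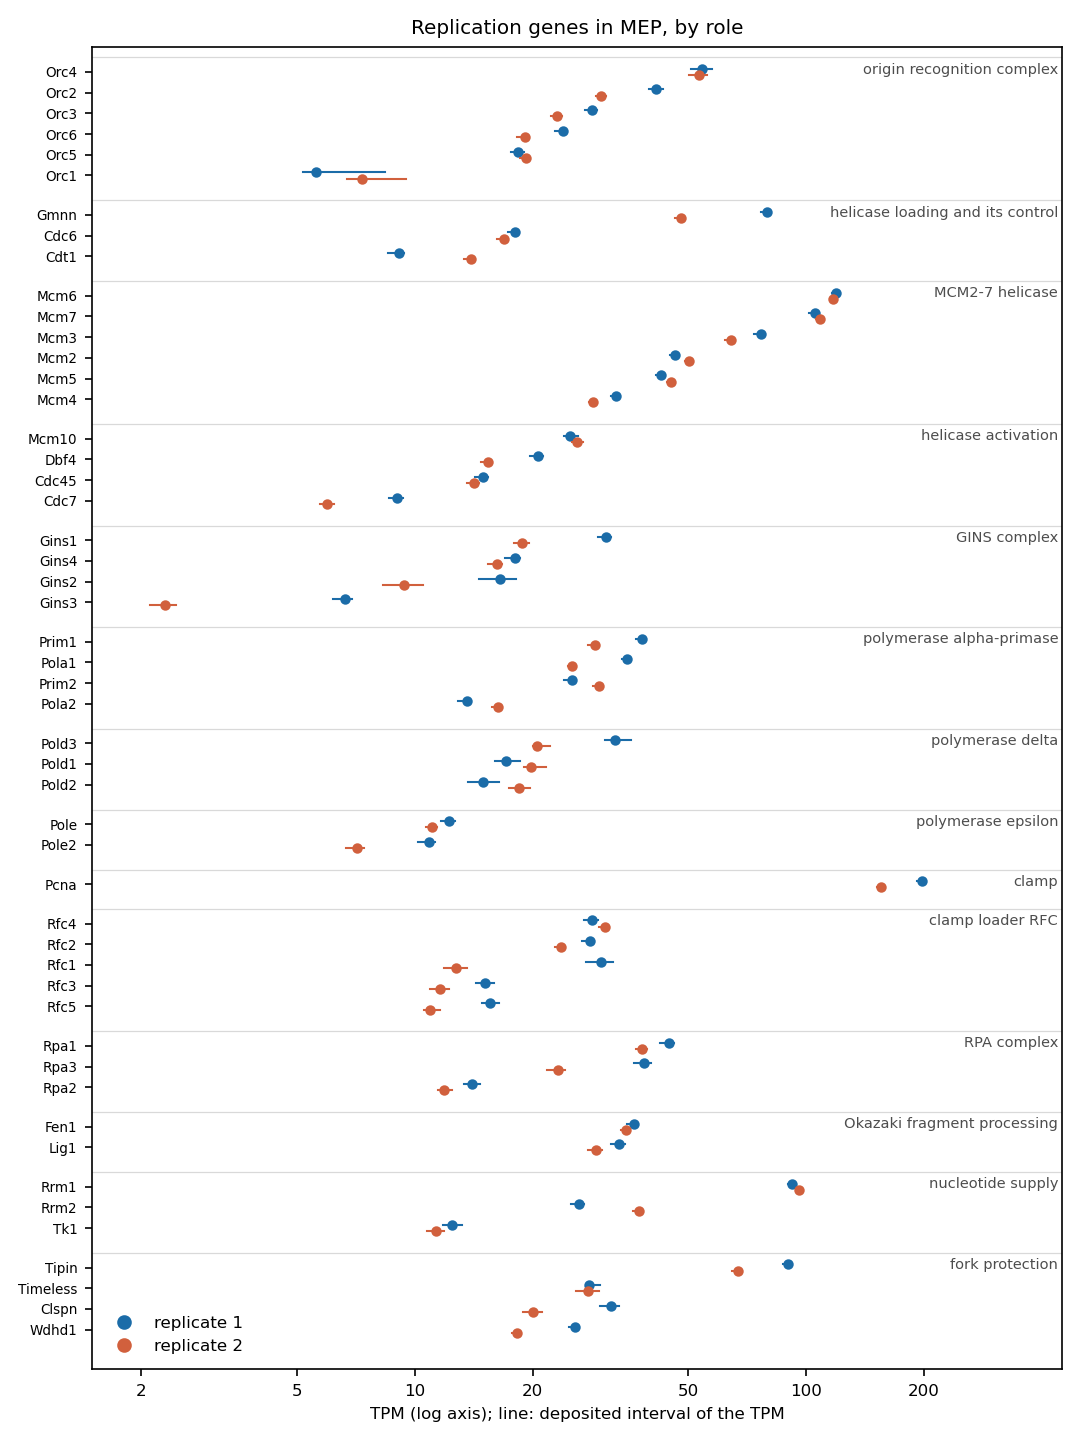
TPM of the 50 genes, grouped by role and ordered by mean within each role; the x axis is TPM on a log scale, points are the 2 libraries and lines the intervals deposited with each TPM, whose level is not stated. Pcna stands at the right end at 197 and 155, and Gins3 at the left end at 6.63 and 2.30.

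Library totals were 39919884 and 48043010 expected counts. Nuclear protein-coding genes held 25.5% of TPM in replicate 1 and 20.6% in replicate 2, so TPM of most genes was lower in replicate 2 before any scaling. Erythroid markers were abundant, as 6 of them had a summed TPM of 1329 and 1296. They were led by the carbonic anhydrase gene Car1, with Car2, Tfrc, Klf1 and Gata1 over a mean of 10. The 5 megakaryocyte markers summed to 45.4 and 16.7, with Pf4 and Itga2b over 10 on average. Sums were 34.6 and 8.29 for 5 stem and multipotent markers, led by Cd34, and 6.95 and 38.3 for 4 late erythroid markers, led by Hba-a1. For 7 granulocyte and monocyte markers, led by S100a8 and S100a9, they were 59.97 and 120, though Mpo was at 8.53 and 1.64. They were 7.01 and 15.1 for 7 lymphoid and NK markers, of which Nkg7 was at 7.01 and 5.02, Gzma at 0 and 9.03, and Cd3e, Cd4 and Cd8a at 0 in both, and 8.44 and 2.14 for 4 mast cell and basophil markers, led by Cpa3, with Mcpt8 at 0 in both. In bulk RNA, fewer cells of a type and less RNA per cell cannot be told apart, and the part of this mixture in the differences between libraries below was not tested.

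The origin recognition complex, which marks the sites where replication can begin, had unequal subunit levels. Orc4 was highest at TPM values of 54.2 and 53.1. Orc2 was at 41.3 and 29.9, Orc3 at 28.4 and 23.1, Orc6 at 24.0 and 19.1, and Orc5 at 18.3 and 19.3. Orc1, the largest subunit and the one known to vary over the cell cycle, was lowest at 5.6 and 7.33. Orc4 and Orc1 thus differed by 8.30-fold in their means. With coding transcripts alone Orc2 was highest by mean, at 32.3 against 24.1 for Orc4, and the range from Orc1 to Orc2 was 7.90-fold. Of 15 pairs of subunits, 14 kept their order in both libraries with the deposited intervals apart, the exception lying between neighbours in this order. Across all roles this held for 66 of 78 pairs.

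Among the loading factors, the inhibitor stood above both loaders. Gmnn, which encodes geminin (ENSMUSG00000006715.7, mm10 chr13:24751845-24761923), had TPM values of 79.5 and 47.8. Cdt1 (ENSMUSG00000006585.2, chr8:122568015-122573554), its target, had 9.10 and 13.9. Cdc6, the ATPase that recruits Cdt1 and the helicase, had 18.1 and 16.9. Cdt1 was below Gmnn in both libraries, by 8.74-fold in replicate 1 and 3.44-fold in replicate 2, a log2 ratio of -2.45 ± 0.95 (SD, n = 2). The levels of the genes were closer to each other in replicate 2, and the ratio had the widest spread of the 10 ratios computed. Both proteins are known to be controlled by degradation, which RNA does not show.

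The helicase ring had the highest median of the roles with more than 1 gene, a TPM of 59.5, although its 6 subunits, which occupy equal places in the ring, had unequal RNA levels. Mcm6 was at TPM values of 119 and 117, and Mcm7 at 105 and 108. Mcm3 followed at 76.8 and 64.4, Mcm2 at 46.3 and 50.3, Mcm5 at 42.6 and 45.2, and Mcm4 at 32.7 and 28.6. All 15 pairs kept this order in both libraries with intervals apart, and the range from Mcm4 to Mcm6 was 3.86-fold. The place of Mcm7 above Mcm3, however, depends on short coding models of Mcm7. Mcm7-201, of 2962 bases, was at 58.2 and 50.1, below Mcm3-201 at 60.3 and 54.4. Mcm7-208, of 1351 bases, was at 15.9 and 47.95, and Mcm7-209, of 795 bases, at 20.8 and 0. The median of the 6 helicase subunits exceeded that of the 6 origin recognition subunits by 2.35-fold in replicate 1 and 2.71-fold in replicate 2, a log2 ratio of 1.33 ± 0.14 (SD, n = 2).

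Genes that activate the helicase lay lower. Mcm10, which helps open the ring, was at TPM values of 24.9 and 26.1, and Cdc45, part of the active helicase, at 14.97 and 14.2. The kinase gene Cdc7 was at 9.03 and 5.99, under its activating subunit Dbf4 at 20.6 and 15.4. The log2 ratio of Cdc7 to Dbf4 was -1.28 ± 0.12 (SD, n = 2). In gene TPM all 6 pairs of these 4 genes kept their order. With coding transcripts alone Dbf4, at 14.46 and 13.35, lay below Cdc45, at 14.97 and 14.21, in both libraries.

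The 4 GINS genes encode a complex with equal numbers of each subunit that joins the helicase to polymerase epsilon, and their RNA levels were spread widely. Gins1 was at TPM values of 30.8 and 18.8, Gins4 at 18.0 and 16.2, and Gins2 at 16.5 and 9.37. Gins3 (ENSMUSG00000031669.9, chr8:95633453-95645060) was lowest of all 50 genes by mean TPM, at 6.63 and 2.30, with 1326 and 677 counts. With coding transcripts alone its mean of 4.47 was above those of Gins2, 3.14, Rfc1, 3.54, and Orc1, 4.09, although the leading model of Rfc1 has no class in the annotation used and is left out there. The range within the complex was 4.64-fold in replicate 1 and 8.18-fold in replicate 2. Each of the 4 levels was lower in replicate 2 in TPM as deposited, as was TPM of most genes. With the shift of all genes removed as described below, Gins4 was higher in replicate 2, at a log2 difference of 0.13. In the scaled counts described below Gins4 was at 0.18 and Gins2 at 0.30, so only Gins1 and Gins3 were lower on both scales. For Gins3 the deposited intervals, 6.19 to 6.90 and 2.11 to 2.46, were far apart.

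Of the polymerases, alpha-primase was higher than epsilon. Prim1, the primase that makes the RNA primer, was at TPM values of 38.2 and 28.8, and its partner Prim2 at 25.2 and 29.5. Pola1 was at 34.9 and 25.3, and the accessory subunit Pola2 at 13.6 and 16.4. Prim1 and Pola1 were higher in replicate 1 while Prim2 and Pola2 were higher in replicate 2, so the 4 subunits of this complex differed in direction. Pole, the leading-strand polymerase, was at 12.2 and 11.1, and its subunit Pole2 at 10.9 and 7.11. Pold1, the catalytic subunit of the lagging-strand polymerase delta, was at 17.1 and 19.8, Pold2 at 14.9 and 18.5, and Pold3 at 32.4 and 20.5. In gene TPM the polymerase delta genes were closer together in replicate 2, where they spanned 1.11-fold, against 2.17-fold in replicate 1. With coding transcripts alone they stayed apart in both libraries. They then ran from 9.14 for Pold1 to 21.23 for Pold3 in replicate 1, and from 8.93 to 18.56 in replicate 2. The narrow span of replicate 2 thus held in gene TPM only. The log2 ratio to Pole was 1.35 ± 0.23 for Pola1 and 0.66 ± 0.25 for Pold1 (SD, n = 2), so the order Pola1, Pold1, Pole held in both libraries.

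Pcna, the sliding clamp that holds polymerases on DNA, had the highest level of the 50 genes. Its TPM was 197 in replicate 1 and 155 in replicate 2, a mean of 176 ± 29.7 (SD, n = 2) and rank 188 among protein-coding genes (ENSMUSG00000027342.10, chr2:132249162-132253314). The processed pseudogene Pcna-ps2 held 633 and 644 counts against 22262 and 25722 for Pcna, and reads may be divided between them. The 5 subunits of its loader were at lower levels. Rfc4 was at 28.4 and 30.7, Rfc2 at 28.1 and 23.7, Rfc3 at 15.1 and 11.6, and Rfc5 at 15.5 and 10.9. Rfc1, the largest subunit, was at 29.97 in replicate 1 and 12.8 in replicate 2. Rfc1 was the highest of the 5 in replicate 1 and in the middle of them in replicate 2, and 5 of 10 pairs of loader subunits kept their order.

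The 3 subunits of RPA, the single-strand binding complex, differed in RNA level. Rpa1 was at TPM values of 44.6 and 38.2, Rpa3 at 38.6 and 23.2, and Rpa2 at 14.0 and 11.9. In gene TPM their order held in both libraries. With coding transcripts alone Rpa3 was above Rpa1 in replicate 1, at 38.57 against 33.82, and below it in replicate 2, at 22.32 against 30.13. Fen1, the nuclease that removes primer flaps, was at 36.3 and 34.6, and the ligase gene Lig1 at 33.3 and 29.0. Lig1 exceeded Lig3, the ligase gene known for repair and mitochondrial DNA, by 1.2 ± 0.25 on the log2 TPM scale (SD, n = 2). Of Lig1 TPM, however, 61.2% and 61.1% lay in Lig1-212, a coding transcript of 1053 bases with 1547 and 1972 counts. Lig1-201, of 3091 bases, had 2309 and 3410 counts and was at 8.82 and 8.85. Lig3 with all its transcripts was at 16.4 and 11.2, so the direction of this ratio depends on the short Lig1 transcript.

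Nucleotide supply was led by ribonucleotide reductase, which makes deoxynucleotides. Rrm1, its large subunit, was at TPM values of 92.1 and 95.96. Rrm2, the S phase small subunit, was at 26.2 and 37.3, and Tk1, the cytosolic thymidine kinase, at 12.5 and 11.3. Rrm1 was above Rrm2 by 1.59 ± 0.32 on the log2 scale. The S phase genes were above their constitutive counterparts, with Rrm2 over Rrm2b by 3.43 ± 0.21 and Tk1 over the mitochondrial kinase gene Tk2 by 2.58 ± 0.17 (SD, n = 2). For all 9 ratios between single genes the deposited intervals did not touch in either library.

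Fork protection genes included a high Tipin and 3 genes close to one another in gene TPM. Tipin was at TPM values of 90.1 and 66.8, and its binding partner Timeless at 27.9 and 27.6, a log2 ratio of Timeless to Tipin of -1.48 ± 0.30 (SD, n = 2). Clspn, which encodes the checkpoint adaptor claspin, was at 31.8 and 20.1. Wdhd1, which ties polymerase alpha to the helicase, was at 25.7 and 18.2. With coding transcripts alone these 3 genes were further apart, with means of 9.78 for Timeless, 15.5 for Clspn and 21.1 for Wdhd1. Tipin was then at 78.4, so Timeless lay further below it than the ratio of gene TPM gives.

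The wider replication pathway was expressed as well. In 7 further lists of 54 genes, chosen by function, 54 reached a TPM of 1 in both libraries and 33 reached 10, with a median of 14.5 against 25.8 for the machinery genes. Chromatin assembly and maintenance genes had a median of 37.4, led by the histone chaperone genes Nasp at 159 in replicate 1 and 135 in replicate 2 and Ssrp1 at 129 and 93.3. Strand processing genes had a median of 20.2, led by the topoisomerase genes Top2a at 131 and 95.7 and Top1 at 55.3 and 44.1. The S phase entry list had a median of 21.2, with the cyclin gene Ccna2 at 46.0 and 48.7 and Ccne1 at 26.4 and 35.4. Its summed TPM was 134 and 136, while those of the other 6 lists were lower in replicate 2, as was TPM of most genes. With the shift of all genes removed as described below, its median log2 difference was 0.127. This median was 0.205 for nucleotide, 0.062 for accessory polymerase and clamp loader, and 0.038 for chromatin assembly genes. It was -0.032 for origin firing, -0.045 for strand processing and -0.266 for checkpoint genes. Nucleotide genes had a median TPM of 11.2, with the dUTPase gene Dut at 118 and 66.4 and the thymidylate kinase gene Dtymk at 57.99 and 54.6. The median TPM was 12.1 for accessory polymerase and clamp loader genes, with Chtf8 at 34.1 and 38.7 and Pole3 at 36.1 and 31.1. Lower medians were found for further origin firing genes, 8.34, with Topbp1 at 60.2 and 49.8 and Rif1 at 45.5 and 35.7, and for checkpoint genes, 7.03, with Chek1 at 32.7 and 20.4 and Atr at 22.8 and 13.3.

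Between the libraries the machinery genes as a group differed little once the shift of all genes was removed. In TPM as deposited, 36 of the 50 were lower in replicate 2 and 14 higher, and the deposited intervals lay apart for 40, of which 30 were lower and 10 higher. Over protein-coding genes at a mean TPM of at least 1 these shares were 61% lower and 15.9% higher, near those of the 50 genes. The difference log2((TPM of replicate 2 + 1)/(TPM of replicate 1 + 1)) had a median of -0.27 over protein-coding genes at a mean TPM of at least 1 and -0.21 over the 50 genes. After the first median was subtracted, called centring here, the median of the 50 was 0.07, with 29 above 0 and 21 below, from -0.94 for Gins3 to 0.84 for Cdt1. No gene was past 2-fold after centring, where 3.41% of protein-coding genes were past it as higher in replicate 2 and 2.9% as lower. Past 1.5-fold, 3 genes were higher, Cdt1, Rrm2 and Orc1, and 2 lower, Gins3 and Rfc1, with 10.7% and 10.5% of protein-coding genes past that size. With expected counts scaled by TMM (edgeR's scaling of library sizes, which uses no transcript length) the median was 0.14, with 35 of 50 above 0. The median over protein-coding genes at a mean TPM of at least 1 was 0.01 on that scale. Gins3 alone was past 2-fold, at -1.19, where 4.66% of protein-coding genes were past it as lower. On that scale 4 of the 50 were past 1.5-fold as higher, Cdt1, Rrm2, Pola2 and Pold1, and Gins3 as lower, against 11.6% of protein-coding genes in each direction. The ranks of the 50 TPM levels correlated between the libraries with a Spearman rho of 0.91, across genes, which are not replicates.

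Subunits of some complexes lay on the same side of 0 and others did not. All 6 helicase genes were above 0 after centring, from 0.02 for Mcm3 to 0.39 for Mcm2, and with TMM-scaled counts, from 0.14 to 0.46, whereas in TPM as deposited Mcm3, Mcm4 and Mcm6 were lower in replicate 2. Rrm2 had 4249 counts in replicate 1 and 9346 in replicate 2, and Cdt1 1633 and 3674. These were the largest positive differences on both scales, 0.77 and 0.84 after centring and 0.92 and 0.95 with TMM. Gmnn, with 5369 and 4733 counts, was lower by both measures, at -0.45 and -0.40, as were Gins1, Rpa3 and Gins3. Pola2, Prim2, Pold1 and Pold2 were higher on both scales, from 0.47 to 0.56 after centring and from 0.55 to 0.61 with TMM. In the same comparison the late erythroid sum was higher in replicate 2, 38.3 against 6.95, and the megakaryocyte and stem sums lower, 16.7 against 45.4 and 8.29 against 34.6. Their part in these values was not tested.

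For 6 genes the effective length used to convert counts to TPM differed by more than 1.2-fold between the libraries, and their differences were unequal on the 2 scales. Such a difference was found in 22.3% of protein-coding genes at a mean TPM of at least 1, and the limit was chosen after the data were seen. Orc1 (ENSMUSG00000028587.14, chr4:108579423-108614833) had 1323 and 1408 counts over effective lengths of 2588 and 1429 bases, and was higher in replicate 2 by 0.61 in centred TPM but at -0.13 in TMM-scaled counts. Gins2 had 1302 and 1866 counts over 865 and 1480 bases, and was at -0.48 in centred TPM and 0.30 in counts. Rfc1 (ENSMUSG00000029191.12, chr5:65261850-65335670) had 7483 and 6867 counts over 2734 and 4002 bases, at -0.90 and -0.34. Pold3 and Clspn were near -0.36 in centred TPM and at 0.07 and 0.17 in counts, and Timeless was at 0.26 and 0.00. Of all 50 genes, 8 had opposite signs on the 2 scales, as did 13.7% of protein-coding genes, and the differences of these 8 have no settled direction. They were Orc1, Gins2, Pold3 and Clspn, and, with smaller values and effective lengths within 1.2-fold, Rfc5 at -0.20 in centred TPM and 0.03 in counts, Dbf4 at -0.13 and 0.04, Orc3 at -0.01 and 0.12, and Orc6 at -0.04 and 0.00.

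**Figure D3:**
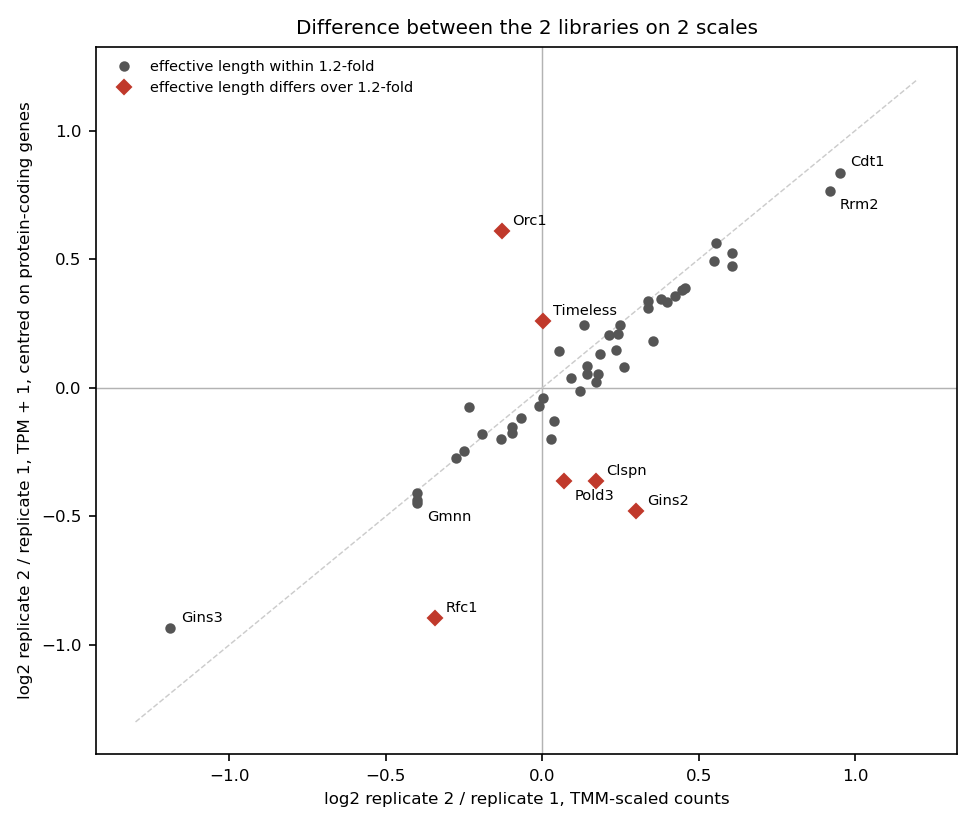
Difference between the libraries for each of the 50 genes on 2 scales; the x axis is log2 of replicate 2 over replicate 1 in TMM-scaled counts, the y axis the same in TPM + 1 after centring on protein-coding genes, and the dashed line marks equal values. Diamonds, the 6 genes whose effective length differed over 1.2-fold, lie off the line, while Cdt1, Rrm2 and Gmnn lie near it.

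The effective length of a gene is set by which transcript models receive its reads, so these models were compared. Of the 50 genes, 10 had 1 transcript in the tables and 40 had more, and the leading transcript, the one with the largest share of the gene's TPM, was the same in both libraries for 37 of the 40. The exceptions were Orc1, Orc4 and Fen1. A protein-coding transcript led in both libraries for 45 genes, and the median share of protein-coding transcripts was 94.4% and 95.1% of a gene's TPM. The same values were not computed over all genes, so these describe the 50 genes only. Of 258 transcripts of these genes, 11 were not found in the newer annotation that gave transcript classes, and they include the leading one of Rfc1.

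In Orc1 the coding transcript Orc1-201 held 91.3% of TPM in replicate 1 and 41.7% in replicate 2, while Orc1-203, a processed transcript of 679 bases, held 8.75% and 58.3%. In reads, however, Orc1-201 had 1303 and 1148 counts and Orc1-203 20.3 and 260, so the short model held a small part of the reads in both libraries. Gins2 was led in both libraries by Gins2-202, a processed transcript of 473 bases, at 54.9% and 64.0%, with 207 and 201 counts, against 975 and 1665 counts for the coding Gins2-201. In Rfc1 a model of 485 bases held 39.99% of TPM with 288 counts in replicate 1 and nothing in replicate 2, and the long leading model of 4751 bases was at 42.2% and 60.3%. In Pold3 the retained-intron model Pold3-202, of 487 bases, held 17.7% with 139 counts in replicate 1 and nothing in replicate 2. Clspn-204, a processed transcript of 687 bases, held 46.2% and 24.9%, and the coding Clspn-201 47.2% and 72.9%. For Timeless a processed transcript, Timeless-202, led in both at 63.1% and 39.2%.

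**Figure D4:**
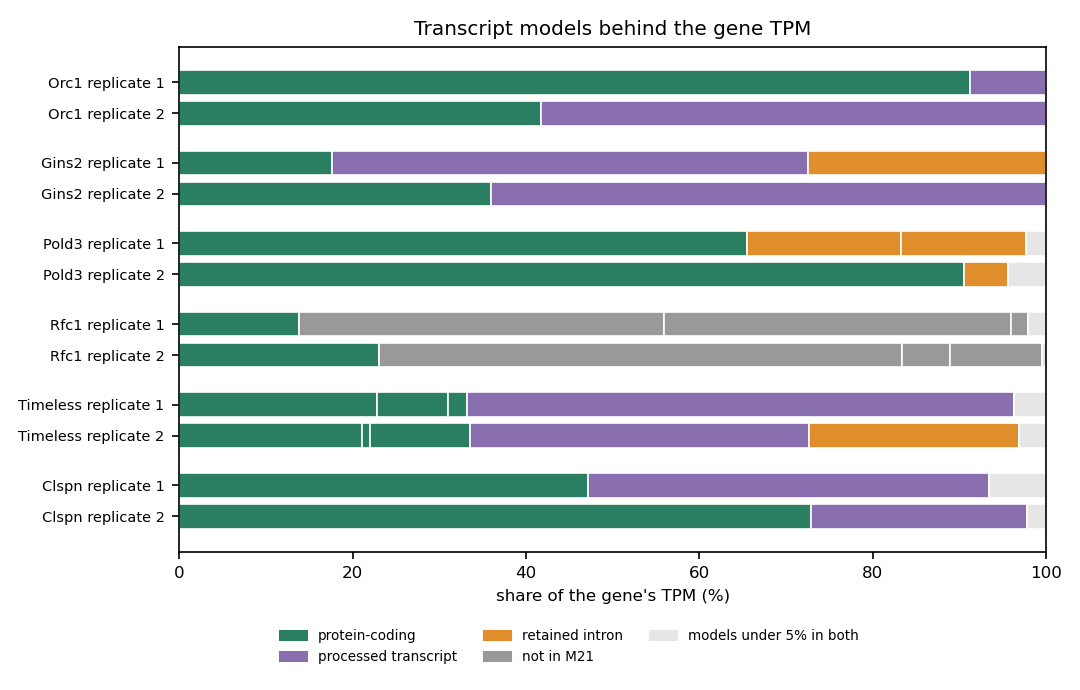
Share of each gene's TPM held by its transcript models in the 6 genes whose effective length differed; the x axis is percent of the gene's TPM, each pair of bars is replicates 1 and 2, and colours give the annotated class. The coding part of Orc1 covers 91.3% in replicate 1 and 41.7% in replicate 2, and that of Clspn and Pold3 is larger in replicate 2.

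The other genes with a changed leader were Orc4 and Fen1. Orc4 was led by Orc4-206, a processed transcript of 424 bases at 40.0%, in replicate 1 and by Orc4-209, a coding model of 383 bases at 31.1%, in replicate 2, while the longest of its models, Orc4-201, held 20.4% and 15.7% with 3882 and 4312 counts. With coding transcripts alone Orc4 was at 20.7 and 27.6, and Orc2 at 38.4 and 26.1. Orc4 was then below Orc2 by mean, and below Orc2 and Orc6, the latter at 23.98, in replicate 1. In replicate 2 Orc4 was still the highest subunit of its complex. Fen1 switched between coding transcripts, Fen1-204 at 48.2% and 35.9% and Fen1-202 at 31.7% and 48.8%. With coding transcripts alone, the median level of the 50 genes was 20.5 in place of 25.8.

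Exons of 19 of the 50 genes share bases with another annotated gene, 4 of them with a gene on the same strand. The share over all genes was not computed, so whether these numbers are unusual is not known. The counting strand is not stated, so reads in shared bases could come from either gene. The longest overlaps were 2758 bases of Gins2 with Gse1, 1909 bases of Fen1 with the antisense gene Gm10143, 1150 bases of Orc2 with Nif3l1 and 952 bases of Rfc2 with Lat2, all on opposite strands. Gse1 held 2591 and 4022 counts, more than Gins2 itself, and Gm10143 held 233 and 247. Shorter overlaps involved more abundant neighbours, 194 bases of Rfc4 with Eif4a2, which held 33688 and 30963 counts, and 171 bases of Orc6 with Vps35, which held 12407 and 14372. Mcm7 contains the microRNA genes Mir25 and Mir93, which had 0 counts in both libraries. The values of Gins2, Fen1, Orc2, Rfc2, Rfc4, Orc6 and the other genes with shared bases are uncertain to that extent.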

How the data were processed

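Total RNA-seq of 2 MEP libraries was analysed as deposited. The authors' tables give, per the file headers, an expected count (not normalized), an effective length, a TPM scaled over all rows, a posterior mean TPM and bounds of a TPM interval for each gene and transcript. Deposited text files name build mm10 and annotation GENCODE M4. Which program made the estimates is not given in the sources. Each library has its own tables. Symbols, classes and coordinates came from GENCODE M21, matched by ID without version, and promoter sequences from RefSeq (GRCm38.p6).

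TPM differences used a pseudocount of 1 and were centred on nuclear protein-coding genes at a mean TPM of at least 1. Counts, with 0.5 added, were scaled by TMM (edgeR 4.0.16) or by DESeq2 1.42.0 size factors over genes with 10 counts in both libraries, in R 4.3.3. Other steps used Python 3.11.15, numpy 2.4.6, pandas 2.3.3 and matplotlib 3.10.9, and the difference calls were tested on simulated data. The simulation gave each gene the same effective length in both libraries, so it does not cover genes whose effective length differed. No test between conditions was run.

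A marker of the erythroid list is not reported here. The 50 genes, the pathway and marker lists and the naming rule were chosen with earlier results of these data known. The rule names all 50 genes and the 2 highest of each pathway list. It also names any member of those lists under a TPM of 1 in both libraries, of which there was none. The genes set against members in ratios are named, as are each marker list's leading gene and markers over a mean TPM of 10. Marker genes named as being at 0, Gzma, Mpo, genes that overlap, and the pseudogene were picked with their values in view. The alternatives comprised other scalings, pseudocounts, thresholds, posterior mean TPM, coding transcripts alone and leaving out each library.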

Additional observations from a re-analysis of the deposited data

How the results depend on the processing

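Of 109 alternative values of 29 results, 90 stayed within a set limit and 19 moved past it. The limit was the SD between the libraries for levels, ranges and ratios, and 1.5 times for counts. For the median difference between replicates it was a small fixed value. Leaving out 1 library moves a mean of 2 by less than their SD whatever the data. For ratios those alternatives could only stay within the limit, and nearly so for levels and ranges, so the 90 do not measure stability. Each library alone gave 50 of 50 genes detected, and the range within GINS was 4.64-fold to 8.18-fold with 1 library left out. The median level of 25.8 became 112 when TPM was rescaled to sum over nuclear protein-coding genes and 20.5 with coding transcripts only, an alternative added after the data were seen. The RPA range became 3.16-fold with the posterior mean TPM. A pseudocount of 1 lowered the log2 ratio of Rrm2 to Rrm2b to 3.05 and of Tk1 to Tk2 to 2.11. The median difference between replicates, 0.07 as reported, was 0.14 with TMM and 0.14 with DESeq2 scaling, 0.10 with rescaled TPM, 0.10 with a pseudocount of 0.1 and 0.10 against genes at a mean TPM of at least 10. It was -0.21 without centring and -0.21 against all protein-coding genes, whose median difference is 0 because most are not expressed. It was 0.10 with coding transcripts only and 0.082 without the 6 genes of unequal effective length, both added after the data were seen. Its sign thus depends on centring. Genes past 2-fold numbered 1 with TMM or DESeq2 scaling (Gins3), 2 without centring (Gins3 and Rfc1) and 5 at 1.5-fold, against 0 as reported. No paired analysis was possible because there is 1 group. Depth did not limit detection, since each gene had at least 677 counts.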
